A study of Mus musculus with 8 samples.

Results

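The 10 genes described here encode proteins that work at the replication fork or supply it with nucleotides, and they were taken as a fixed list of 10 of the 24421 genes in the count tables. Pcna, Rfc4, Rpa2, Fen1 and Lig1 act at the fork, and Rrm1, Rrm2, Dut, Tyms and Tk1 in the making of deoxynucleotides. Their transcripts were followed in pancreatic islet cells of 8-week-old male C57BL/6J mice, in 4 samples taken 2 days after 50% partial pancreatectomy (PPTx) and in 4 samples from unoperated control mice, so that the operation itself was not matched by a sham. Each sample held the islets of 1 to 3 mice. The labels name no transgene or drug in either group.

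DNA is copied at forks where a helicase opens the duplex, RPA coats the exposed single strand, and polymerases extend the new strands while tethered to the sliding clamp PCNA. The clamp is opened and closed around DNA by the RFC loader, and on the lagging strand FEN1 trims the flap of each fragment before LIG1 seals the nick. Ribonucleotide reductase (RRM1 with RRM2) makes deoxynucleotides, DUT removes dUTP and leaves dUMP, TYMS converts dUMP to dTMP, and TK1 makes dTMP from thymidine. Most of these genes are transcribed around S phase under E2F factors, and adult β-cells, which divide rarely, enter the cycle more often after part of the pancreas is removed.

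All 10 genes matched a RefSeq entry, with 13 annotated promoters of 300 bases (250 before to 50 after the start, build GRCm38.p6). Because the tested genes were called higher together between β-cells with and without a Top2a or Cdk1 UMI, the promoters were searched on both strands for the E2F letters TTTCCCGC, TTTCGCGC, TTTGGCGC and TTTGCCGC. A match stood in 1 of the 13 promoters, that of Lig1, against 2.26% of all 32851 promoters in the table. After that result was seen, the same motifs were searched without their first T. The resulting 7 letters were found in 7 of the 13 promoters, against 9.57% of all promoters. By gene they were found in 6 of the 10 (Rfc4, Rpa2, Fen1, Lig1, Rrm1 and Rrm2), against 10.9% of all 27025 genes. The CCAAT box was present in 4 of the 13 promoters (Pcna, Rpa2, Rrm1 and Rrm2), against 37.4% of all, and the letters TTTGAA or TTCGAA in 1 (Fen1), against 19.2%. These are letter matches in a fixed window and not binding sites. No match to the 7 letters was found in the promoters of Pcna, Dut, Tyms and Tk1. Shown are the promoters of the 3 genes with the largest fold change in that comparison among the 9 that had enough UMIs to be tested, which leaves out Tk1, with the Lig1 promoter that held a pair of matches; capitals mark the 7 letters on either strand. They lie at chr12:24708004-24708303 (plus strand, Rrm2), chr16:23127681-23127980 (minus strand, Rfc4), chr7:102441445-102441744 (plus strand, Rrm1) and chr7:13278576-13278875 (plus strand, Lig1).
Rrm2: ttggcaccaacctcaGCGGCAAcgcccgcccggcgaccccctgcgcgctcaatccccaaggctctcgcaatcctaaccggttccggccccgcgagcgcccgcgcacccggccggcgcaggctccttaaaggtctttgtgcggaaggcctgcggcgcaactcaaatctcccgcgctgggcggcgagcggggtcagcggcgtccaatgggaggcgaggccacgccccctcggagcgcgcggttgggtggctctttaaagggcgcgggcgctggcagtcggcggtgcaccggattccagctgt
Rfc4: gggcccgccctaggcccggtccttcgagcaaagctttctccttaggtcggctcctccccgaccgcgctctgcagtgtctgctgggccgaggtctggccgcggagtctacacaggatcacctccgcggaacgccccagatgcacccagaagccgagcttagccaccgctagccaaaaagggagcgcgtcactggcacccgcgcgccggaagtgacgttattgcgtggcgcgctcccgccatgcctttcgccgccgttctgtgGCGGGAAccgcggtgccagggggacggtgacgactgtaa
Rrm1: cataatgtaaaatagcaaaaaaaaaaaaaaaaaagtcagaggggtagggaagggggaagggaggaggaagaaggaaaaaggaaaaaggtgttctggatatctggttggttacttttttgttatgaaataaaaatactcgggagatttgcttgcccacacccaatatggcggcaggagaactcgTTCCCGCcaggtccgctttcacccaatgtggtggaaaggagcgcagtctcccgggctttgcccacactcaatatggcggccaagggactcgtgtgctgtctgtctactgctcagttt
Lig1: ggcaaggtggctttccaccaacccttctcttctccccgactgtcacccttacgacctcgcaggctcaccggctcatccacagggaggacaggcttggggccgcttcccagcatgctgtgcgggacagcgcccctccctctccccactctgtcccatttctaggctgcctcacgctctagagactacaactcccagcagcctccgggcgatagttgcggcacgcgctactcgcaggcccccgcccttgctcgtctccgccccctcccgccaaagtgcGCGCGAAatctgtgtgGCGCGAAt
The first letter of the match lay at -235 from the start in Rrm2, at 11 in Rfc4, at -67 in Rrm1, and at 26 and 42 in Lig1.

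Of 1240 deposited cells 1232 passed the filters (520 of control and 712 of PPTx samples), with 227439 to 1580152 unique molecular identifiers (UMIs, counted molecules) per sample. Cells were assigned by the hormone that made at least 60% of their UMIs of Ins1, Ins2, Gcg, Ppy and Sst, giving 956 β-cells, 115 α-cells, 132 PP-cells, 14 δ-cells and 15 cells without a dominant hormone. The β-cell markers Iapp, Slc2a2, G6pc2, Ucn3 and Nkx6-1 were highest in the β-cells. Pdx1 was also highest there, at a low level, whereas Mafa was near 0. Nnat, listed as a β-cell marker, was higher in the 14 δ-cells than in the β-cells. Ttr and Irx2 marked the α-cells, Pyy the PP-cells and Hhex the δ-cells, and Vipr2, listed as a PP marker, was at 0 in PP-cells. Of the barcodes, 1 occurred in more than 1 sample, and the shallowest kept cell held 2005 UMIs. In the control 1 and PPTx 4 samples, the median cell had 3328 and 3513.5 UMIs, less than in the other 6 samples.

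β-cells were divided by the transcripts of Top2a, the topoisomerase that untangles replicated DNA, and Cdk1, the kinase that drives mitosis. At least 1 UMI of either gene was present in 48 β-cells (Top2a/Cdk1+), and 908 had none (Top2a/Cdk1-). The 48 cells came from all 8 samples, but 17 came from the PPTx 2 sample and only 1 each from the control 1 and control 2 samples. Their median depth was 6997.5 UMIs, against 6009.5 UMIs in Top2a/Cdk1- cells. These classes say which cells held a transcript at this depth and do not by themselves give a phase of the cell cycle.

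Top2a/Cdk1+ β-cells made up 1.82%, 1.28%, 3.25% and 3.33% of the β-cells of control samples 1 to 4 and 6.86%, 7.17%, 8.65% and 3.65% of those of PPTx samples 1 to 4. The lowest PPTx sample, PPTx 4, lay just above the highest control sample. The control mean of 2.42% ± 1.03 (SD, n = 4) and the PPTx mean of 6.58% ± 2.11 (SD, n = 4) were 4.16 percentage points apart (two-sided exact permutation test, p = 0.0286, the smallest p that 4 against 4 allows). Without control 1, 2, 3 or 4 the p was 0.0571 each time, and without β-cells carrying transcripts of other cells it was 0.0857 (exact permutation tests). With each cell thinned to 2500 UMIs, which left out 71 shallower β-cells, the means were 1.17% ± 1.03 (SD, n = 4) and 4.09% ± 1.11 (SD, n = 4; exact permutation test, p = 0.0286). When at least 2 UMIs were asked for, the means were 1.80% and 2.998% and the difference was within the spread between samples (exact permutation test, p = 0.286).

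Which of the 10 genes accompany Top2a and Cdk1 was asked by comparing both classes of β-cells within samples. UMIs were summed per sample and class over the 6 samples with at least 2 Top2a/Cdk1+ cells (control 3 and 4 and PPTx 1 to 4), and all genes were tested by quasi-likelihood in edgeR, blocked by sample, where they had at least 15 UMIs. All 9 members that could be tested were called higher in Top2a/Cdk1+ β-cells, where 4.9% of the 9895 genes tested passed an adjusted p of 0.05, 1.72% as higher and 3.18% as lower. In CPM, 7 of the 10 were higher in every one of the 6 samples, against 2.28% of the genes tested. With cells thinned to 2500 UMIs, 2 of the 10 (Pcna and Dut) were higher in 6 of 6 samples. DESeq2 called 4 of the 9 as higher (Pcna, Fen1, Rrm1 and Dut), against 0.576% of the genes tested, and gave no adjusted p for the other 5. When the classes were set by a UMI of Mki67 instead, 5 of the 9 were called higher by edgeR, against 0.751% of 9722 genes, and Rpa2, Fen1, Dut and Tyms were not. The fitted median of all genes was -0.51 on the log2 scale; with DESeq2 size factors in edgeR the median was -0.10, and the 9 members were higher under either scaling. Summed over the 10 genes, 1017 counts per 1000000 UMIs (CPM; exact 95% Poisson interval 915 to 1127) were measured in Top2a/Cdk1+ cells and 117 CPM (109 to 126) in Top2a/Cdk1- cells. Intervals on counts cover counting error only. Levels are given per gene and are not compared between genes, because UMI counts from transcript ends were not scaled by length.

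Pcna encodes the sliding clamp. Its level in Top2a/Cdk1+ β-cells had a lowest value of 109, a median of 143 and a highest value of 253 CPM over the 6 samples, and in Top2a/Cdk1- cells these values were 11.4, 16.2 and 33.1 CPM. Thus every Top2a/Cdk1+ sum lay above every Top2a/Cdk1- sum. The log2 fold change was 2.35 (SE 0.37; edgeR, adjusted p = 2.94e-08), with a gain in 6 of 6 samples (CPM compared by sign flips within samples, exact permutation p = 0.0312, the lowest value 6 samples can give). Over the pooled cells of all 8 samples the ratio was 9.73 (95% interval 7.04 to 13.3), from 64 UMIs in 23 of 48 cells and 112 UMIs in 79 of 908 cells.

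Rfc4, a subunit of the loader that places PCNA on DNA, ran from 21.8 CPM over a median of 48.3 CPM to 94.96 CPM in Top2a/Cdk1+ cells and from 0 over 3.59 CPM to 7.65 CPM in Top2a/Cdk1- cells. Both ranges were separate. Its log2 fold change of 3.18 (SE 0.61; edgeR, adjusted p = 2.08e-05) was among the largest of the members. The same 20 UMIs were counted in the 48 Top2a/Cdk1+ cells as in the 908 Top2a/Cdk1- cells, which hold 17.0 times as many UMIs (95% interval of the ratio 8.69 to 33.3).

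Rpa2 encodes a subunit of the protein that coats single-stranded DNA. It was the least certain of the tested members, with 0, 32.1 and 79.3 CPM as the lowest, median and highest Top2a/Cdk1+ values and 2.45, 4.73 and 8.50 CPM in Top2a/Cdk1- cells. PPTx 4 was the sample without a Rpa2 UMI in its 5 Top2a/Cdk1+ cells, so the classes overlapped, and Rpa2 was higher in 5 of 6 samples (sign flips, exact p = 0.0625). The log2 fold change was 2.23 (SE 0.60; edgeR, adjusted p = 0.0092). The call was lost without control 4 (edgeR, adjusted p = 0.056), PPTx 2 (0.137) or PPTx 3 (0.0693), when cells were thinned to 2500 UMIs (0.128), and when at least 2 UMIs of Top2a and Cdk1 were asked for (0.137).

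Fen1 and Lig1 finish the lagging strand. Fen1, the flap nuclease, stood at 39.7, 80.5 and 138 CPM (lowest, median, highest) in Top2a/Cdk1+ cells and at 3.55, 11.9 and 23.8 CPM in Top2a/Cdk1- cells, with no overlap. Its log2 fold change was 2.24 (SE 0.42; edgeR, adjusted p = 1.27e-05). Lig1, the ligase that seals the fragments, stood at 39.7, 59.8 and 84.7 CPM and at 4.55, 6.22 and 11.03 CPM, again without overlap, with a log2 fold change of 2.70 (SE 0.51; edgeR, adjusted p = 1.55e-05). Both were higher in 6 of 6 samples, and in 4 of 6 with cells thinned to 2500 UMIs (sign flips, exact p = 0.125 each). Of the 47 β-cells with a Lig1 UMI, 42.6% also had a Fen1 UMI, whereas 8.47% of all β-cells had one; this is a description of cells that share depth and sample.

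Rrm1, the large subunit of ribonucleotide reductase, had the smallest adjusted p of the members. Its lowest, median and highest values were 65.4, 138 and 200.5 CPM in Top2a/Cdk1+ cells and 0.816, 10.98 and 19.6 CPM in Top2a/Cdk1- cells. The classes did not overlap, and the log2 fold change was 3.03 (SE 0.41; edgeR, adjusted p = 4.99e-11). Rrm1 was detected in 30 of the 48 Top2a/Cdk1+ cells and in 51 of the 908 others. Rrm2, the small subunit of the enzyme in cycling cells, rested on fewer molecules, 15 and 17 UMIs in both classes. It was measured at 0, 30.6 and 153 CPM (lowest, median, highest) and at 0, 3.12 and 7.55 CPM, so that the classes overlapped, with the highest value in control 3 and a value of 0 in PPTx 4. The log2 fold change of Rrm2 was 3.22 (SE 0.64; edgeR, adjusted p = 5.93e-05), and without control 3 it was 2.26 and no longer called (edgeR, adjusted p = 0.109).

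Dut, the dUTPase, was present in β-cells of both classes. Its lowest, median and highest values were 189.9, 306 and 355 CPM in Top2a/Cdk1+ cells and 41.6, 52.6 and 64.6 CPM in Top2a/Cdk1- cells, where 233 of 908 cells held a UMI. The classes were separate, but the log2 fold change of 1.73 (SE 0.27; edgeR, adjusted p = 3.90e-08) was the smallest among the 9 tested members. With cells thinned to 2500 UMIs the log2 fold change of Dut was 0.85 and was not called (edgeR, adjusted p = 0.184), in a fit where the median of all genes was -1.02. In CPM, the thinned means of Dut were 189 and 48.8, higher in 6 of 6 samples (sign flips, exact p = 0.0312). Tyms, the thymidylate synthase, ran from 21.8 over a median of 59.1 to 117 CPM and from 1.14 over 4.87 to 11.1 CPM, without overlap (log2 fold change 2.85, SE 0.52; edgeR, adjusted p = 4.97e-06). Without PPTx 3 the log2 fold change of Tyms was 2.18 (edgeR, adjusted p = 0.029). A single UMI of its pseudogene Tyms-ps was found in all cells, so few of the Tyms reads could have been assigned to that copy.

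Tk1, the thymidine kinase of S phase, had 14 UMIs in the 6 samples, under the minimum of 15. Of these, 11 UMIs were in 9 of the 48 Top2a/Cdk1+ cells and 3 UMIs in 3 of the 908 Top2a/Cdk1- cells, a pooled ratio of 62.4 with a wide interval (16.5 to 349). By sample it was measured at 0, 32.0 and 79.3 CPM (lowest, median, highest) against 0, 0.425 and 1.38 CPM and was higher in the 5 samples that had any UMI (sign flips, exact p = 0.0625, the lowest value 5 samples can give). With no minimum on UMIs, its log2 fold change was 4.70 (SE 1.05; edgeR, adjusted p = 0.000871).

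**Figure D1:**
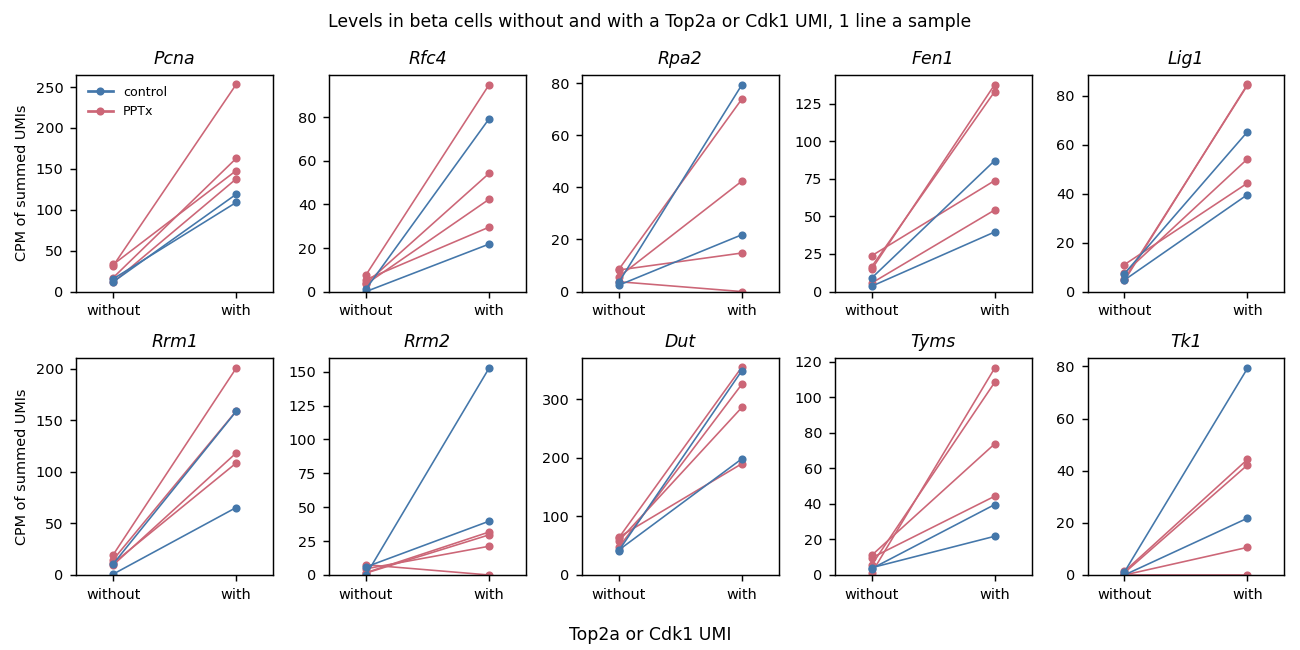
CPM of summed UMIs (vertical axis, linear, from 0) of each of the 10 genes in β-cells without and with a Top2a or Cdk1 UMI (horizontal axis); each line is 1 of 6 samples, blue for control and red for PPTx. All lines of Pcna, Rfc4, Fen1, Lig1, Rrm1, Dut and Tyms rise, while Rpa2 and Rrm2 end at 0 in 1 PPTx sample.

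**Figure D2:**
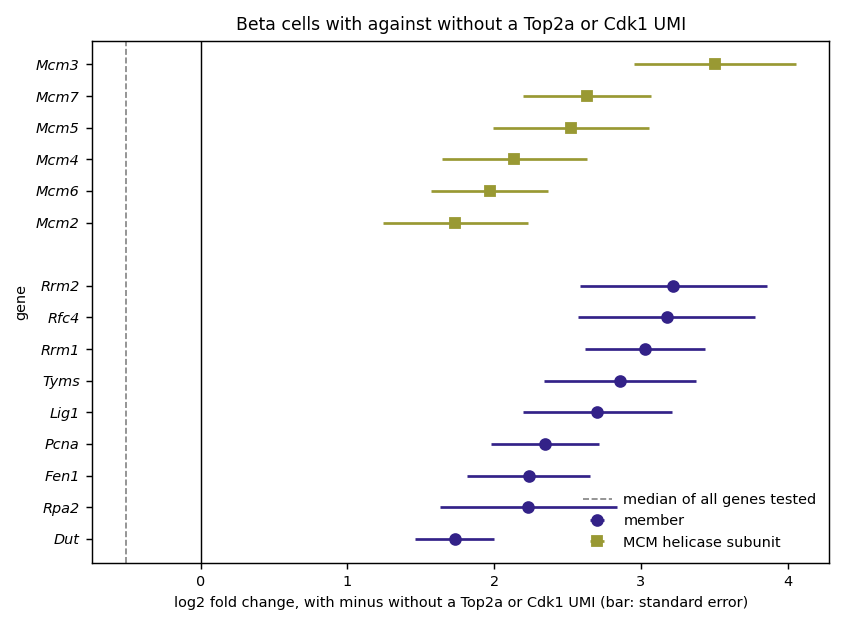
Log2 fold change (horizontal axis) between β-cells with and without a Top2a or Cdk1 UMI for the 9 tested members and, for comparison, the 6 subunits of the MCM helicase; bars are standard errors and the dashed line is the median of all genes tested, -0.51. The members lie between 1.73 (Dut) and 3.22 (Rrm2).

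Other genes of the fork were higher in the same cells. Of 24 tested genes of the clamp, its loader and the fork, chosen without the members, 18 reached 15 UMIs in Top2a/Cdk1- β-cells alone, as all 9 tested members did. Of these 18 genes 8 were called higher and none lower in Top2a/Cdk1+ β-cells, with a median log2 fold change of 1.18, against 107 higher of 9764 genes and a median of -0.52 for all genes that reached 15 UMIs there. The other 6 passed the minimum only with the cells of the other class added, and are not counted. Rnaseh2c, a subunit of the ribonuclease that removes RNA from DNA, changed by 2.66 (SE 0.40; edgeR, adjusted p = 1.21e-08). The loader subunit Rfc3 changed by 2.21 (SE 0.50; edgeR, adjusted p = 0.000857) and the fork-protection gene Tipin by 1.77 (SE 0.41; adjusted p = 0.00126). The gene listed as 2810417H13Rik, an older symbol of the PCNA-binding factor Pclaf, is 1 of those 6, and nothing is drawn from its value. Of 9 polymerase and primase genes that reached 15 UMIs in Top2a/Cdk1- cells, 2 were called higher, namely Prim1 (2.43, SE 0.51) and Pola1 (2.74, SE 0.70). Pole passed the minimum only with the Top2a/Cdk1+ cells added and is not counted. All 6 subunits of the MCM helicase, which opens the duplex ahead of the fork, were called higher (median 2.33).

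Nucleotide genes outside the members were called in both directions or not at all. Of 26 tested genes for the nucleotide supply of dividing cells, 4 were called higher and 3 lower, with a median of -0.03. Among all 9764 genes that reached 15 UMIs in Top2a/Cdk1- cells, 107 were called higher and 315 lower, with a median of -0.52. The difference between this list and other genes was not tested. The higher genes included the thymidylate kinase Dtymk (1.54, SE 0.37; edgeR, adjusted p = 0.00204) and the deoxycytidine kinase Dck (2.21, SE 0.56; adjusted p = 0.00414). The nucleoside diphosphate kinase Nme2 fell by 0.90 on the log2 scale (SE 0.26; adjusted p = 0.0157). Among 10 tested genes of nucleotide supply outside S phase, such as the p53-induced reductase subunit Rrm2b and the mitochondrial kinase Tk2, none was called by edgeR in either direction, 1 (Cmpk2) had an unadjusted p under 0.05, and the median was -0.50. Rrm2b had a log2 fold change of -1.41 (SE 0.81; edgeR, adjusted p = 0.310). Of 18 mitotic genes, 11 had enough UMIs to be tested and none of these reached 15 UMIs in Top2a/Cdk1- cells alone, so they passed only through the class where they were high and their calls are not counted. Mki67, which belongs to them, was found in 14 of the 48 cells and in 4 of the 908.

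Transcripts of non-islet cells were looked for in the Top2a/Cdk1+ β-cells. All 32 UMIs of a stellate list came from 1 cell and all 17 UMIs of an immune list from another, both in PPTx 2. The acinar list had 10 UMIs in 8 of the 48 cells and the ductal list 12 UMIs in 8 cells, and the endothelial list had 1 UMI, with Pecam1 and Cdh5 at 0. In 1 of the cells 1602 UMIs of Gcg were counted. Leaving out the 66 β-cells with 3 or more UMIs of the endothelial, immune, acinar, ductal and stellate lists together or with under 90% of hormone UMIs from insulin, of which 4 were Top2a/Cdk1+, left all 9 members called, with Rpa2 at 2.48 (edgeR, adjusted p = 0.00227) and Dut at 1.76 (adjusted p = 4.11e-08). No doublet caller was run.

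How many of the 10 genes a single cell held was counted next. At least 3 members were detected in 30 of the 48 Top2a/Cdk1+ β-cells and in 40 of the 908 Top2a/Cdk1- β-cells; 2 of the 48 cells had none, and no cell had all 10. After thinning to 2500 UMIs, with the classes kept from full depth, the counts were 12 of 43 and 9 of 842, so the number depends on depth. The Top2a/Cdk1+ cells with at least 3 members had a median of 8482.5 UMIs and held 616 CPM of the MCM genes and 826 CPM of the mitotic list. The 18 cells with 0 to 2 members had a median of 4236 UMIs, 191 CPM of the MCM genes and 1362 CPM of the mitotic list (95% interval 1130 to 1628). Of the 121 mitotic UMIs in these 18 cells, 51 came from 1 cell of PPTx 2.

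The 40 Top2a/Cdk1- β-cells with at least 3 members held 381 CPM of the MCM genes (95% interval 321 to 450), against 34.7 CPM (30.0 to 39.9) in the other 868. Of the mitotic list they held 87.2 CPM (59.6 to 123), against 6.16 CPM (4.29 to 8.57) in the other 868. Of the 32 mitotic UMIs in these 40 cells, 17 came from 1 cell of PPTx 3. Their median depth was 9579 UMIs, against 5877 UMIs. Their Mki67 count was 4 UMIs, in 3 cells, against 1 UMI in the other 868, and all 5 UMIs came from PPTx 2. By sample the 40 cells made up 0%, 0%, 1.63% and 2.50% of the β-cells of controls 1 to 4. In PPTx samples 1 to 4 they made up 6.86%, 6.75%, 8.65% and 2.19%. PPTx 4 fell among the controls and the other PPTx samples lay above them. Thinned to 2500 UMIs, the shares were 0 to 0.826% in control and 0 to 2.38% in PPTx samples, and overlapped. The limit of 3 was set with earlier results known, and no test was run on these shares.

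**Figure D3:**
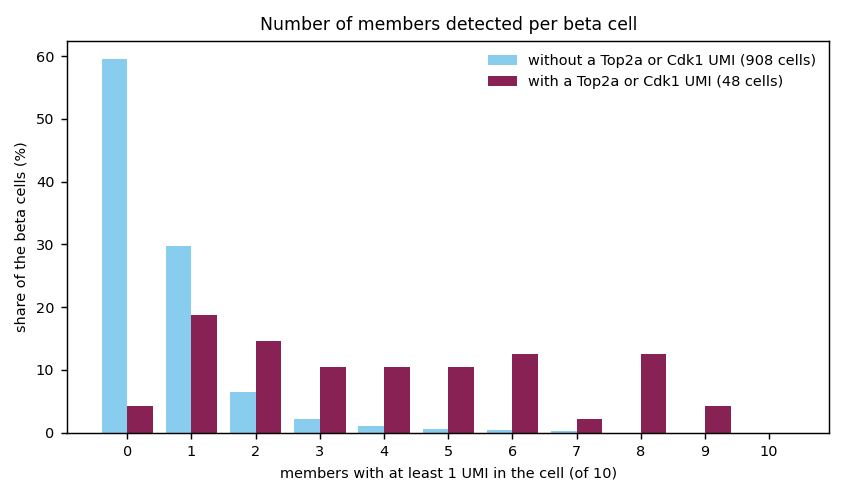
Share of β-cells in percent (vertical axis, from 0) by the number of the 10 genes with at least 1 UMI in the cell (horizontal axis), for the 908 cells without and the 48 cells with a Top2a or Cdk1 UMI. Of the former 540 had no member detected, and of the latter 2.

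The study's own comparison, PPTx against control, was then made for the members in all β-cells. All 10 had a higher mean in PPTx than in control samples, and the 10 together ran from 93.2 to 111 CPM in control and from 135 to 245 CPM in PPTx samples, without overlap. None of the 9 tested members passed the adjusted p of 0.05 in edgeR, which called 17 of 10078 genes (0.169%), and DESeq2 called 0 members as well, with 8 of its 9 adjusted p-values not given. At an unadjusted p under 0.05, 7 of the 9 were higher, against 4.91% of all genes tested. Every PPTx sample lay above every control sample for 3 members (Pcna, Rfc4 and Tyms), against 4.02% of all genes. Rfc4, Tyms, Rpa2 and Rrm2 held 6, 10, 11 and 14 UMIs in control samples. They reached the minimum of 15 only with the PPTx samples added, so neither tally counts as support for them. In sums over cells of a sample, more cells with a transcript and more transcript per cell cannot be told apart.

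Pcna was measured at 14.96, 12.7, 18.9 and 14.9 CPM in β-cells of controls 1 to 4 and at 42.9, 47.99, 23.6 and 21.9 CPM in PPTx samples 1 to 4. The groups were separate, with PPTx 3 and PPTx 4 nearest to the controls. The log2 fold change was 0.98 (SE 0.30; edgeR, unadjusted p = 0.00266, adjusted p = 0.255; exact permutation test on CPM, p = 0.0286), and with cells thinned to 2500 UMIs it was 0.36 (edgeR, adjusted p = 0.940). Rfc4 stood at 0, 4.24, 0.787 and 3.45 CPM in controls and at 7.57, 14.2, 7.19 and 5.47 CPM after PPTx, on only 6 and 34 UMIs (log2 fold change 1.86, SE 0.61; edgeR, adjusted p = 0.340). Tyms stood at 0, 0, 4.72 and 4.59 CPM and at 12.6, 15.7, 12.3 and 9.11 CPM (log2 fold change 1.71, SE 0.51; edgeR, adjusted p = 0.238). For both, all PPTx samples exceeded all controls (exact permutation test, p = 0.0286 each, the smallest possible).

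Fen1 was at 4.99, 6.35, 11.8 and 4.59 CPM in controls and at 26.5, 27.5, 26.7 and 7.29 CPM in PPTx samples. PPTx 4 lay below control 3, and the other 3 PPTx samples lay above every control (log2 fold change 1.38, SE 0.39; edgeR, unadjusted p = 0.00138, adjusted p = 0.192). Without control 3 the log2 fold change of Fen1 was 2.03 (edgeR, adjusted p = 0.135). With no minimum on UMIs Fen1 was the 1 member called (edgeR, adjusted p = 0.0395). Rrm1 was at 9.97, 12.7, 3.15 and 14.9 CPM and at 18.9, 33.0, 28.8 and 14.6 CPM, with PPTx 4 just under control 4 (log2 fold change 1.29, SE 0.38; edgeR, adjusted p = 0.235). Without control 3 the log2 fold change of Rrm1 was 0.80 (edgeR, adjusted p = 0.566). Dut, at 64.8, 50.8, 52.7 and 47.1 CPM against 88.3, 74.0, 80.1 and 56.5 CPM, overlapped through PPTx 4 and control 1 (log2 fold change 0.42, SE 0.20; edgeR, adjusted p = 0.607). With thinned cells the log2 fold change of Dut was 0.082 (edgeR, adjusted p = 0.989).

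Lig1 ranged from 0 to 9.44 CPM in control and from 9.11 to 13.9 CPM in PPTx samples, and Rpa2 from 2.12 to 5.74 CPM and from 3.65 to 13.4 CPM. Neither pair of groups was separate (edgeR, adjusted p = 0.714 and 0.602). The groups overlapped for Rrm2, with 0 to 6.89 CPM in control and 3.78 to 7.29 CPM in PPTx samples, and its fitted log2 change of -0.05 (SE 0.57; edgeR, adjusted p = 0.995) went against its means of 3.63 and 5.29 CPM. Tk1, on 4 and 10 UMIs, was at 0 in 2 controls and in PPTx 4.

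**Figure D4:**
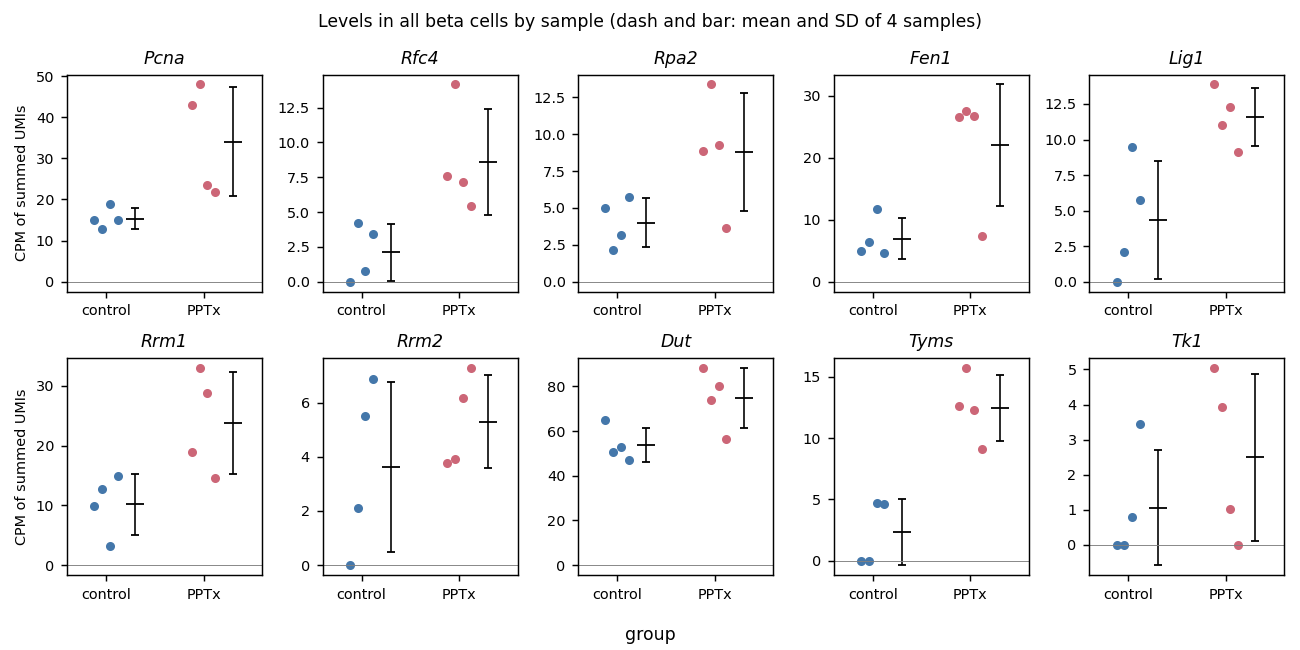
CPM of UMIs summed over all β-cells of a sample (vertical axis, linear) for each of the 10 genes in the 4 control (blue) and 4 PPTx (red) samples; the dash and bar are the mean and SD. The groups are separate for Pcna, Rfc4 and Tyms, and the lowest PPTx point of Fen1, at 7.29 CPM, is that of PPTx 4.

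Whether the difference was limited to the Top2a/Cdk1+ cells was asked in the 908 Top2a/Cdk1- β-cells. All 10 members again had a higher mean after PPTx, and none of the 9 tested was called by edgeR (15 of 9868 genes called, 0.152%) or by DESeq2, which gave no adjusted p for any of them. At an unadjusted p under 0.05, 4 were higher (Rfc4, Fen1, Rrm1 and Pcna), against 4.49% of all genes. Rfc4 reached the minimum of 15 UMIs only through the PPTx samples, where it was higher, so its p and separation do not count as support. The groups were separate for Rfc4 alone, at 0 to 2.15 CPM in control and 3.41 to 7.65 CPM in PPTx samples on 2 and 18 UMIs (log2 fold change 2.46, SE 0.89; edgeR, adjusted p = 0.457); 3.57% of all genes were separate in this direction. Fen1 ran from 3.55 to 8.98 CPM and from 5.66 to 23.8 CPM (1.26, SE 0.43; adjusted p = 0.429), and Pcna from 0 to 15.5 CPM and from 11.4 to 33.1 CPM (0.93, SE 0.43; adjusted p = 0.652). With cells thinned to 2500 UMIs the log2 fold change in Top2a/Cdk1- cells was 0.53 for Fen1, 0.35 for Pcna and 0.68 for Rrm1, against 1.08 for Rrm1 unthinned. Without control 3 it was 1.88 for Fen1, 1.79 for Rfc4 and 0.45 for Rrm1. Tyms ran from 0 to 4.08 CPM in control and from 1.14 to 11.1 CPM in PPTx samples, Rpa2 from 0 to 5.04 CPM and from 3.77 to 8.50 CPM, and Lig1 from 0 to 7.35 CPM and from 4.55 to 11.03 CPM. The groups overlapped for these 3 genes (edgeR, adjusted p = 0.763, 0.704 and 0.934) and also for Rrm2 (0.961) and for Tk1, which had 3 UMIs. The means of Dut were 50.3 ± 11.1 CPM in control and 58.3 ± 7.97 CPM in PPTx samples (SD, n = 4 each; exact permutation test, p = 0.314). Among the MCM genes of the same cells, Mcm6 alone was called (2.11, SE 0.40; edgeR, adjusted p = 0.0287), as it was in all β-cells (2.195, SE 0.38; adjusted p = 0.0125).

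Marker transcripts of other cells were counted in the same β-cells. The summed α-cell markers (6 of 6 genes detected) ran from 1365 to 1879 CPM in control and from 1919 to 2351 CPM in PPTx samples, and the PP-cell markers (3 of 4, Sertm1 at 0) from 145 to 725 CPM and from 849 to 2342 CPM, so that both lists were separate with PPTx higher. Ttr made up most of the α sum, at 1723 CPM over all β-cells, and Pyy most of the PP sum, at 913 CPM. Gene by gene, 2 of 4 tested α markers and 1 of 2 tested PP markers had a log2 change above 0. The median was 0.0056 for the α markers, and 1 PP marker was called higher by edgeR. The part of these lists in the members' differences was not tested. The δ-cell markers (3 of 4, Ghsr at 0) overlapped, at 15.7 to 56.3 CPM and 16.5 to 135 CPM. The non-islet lists overlapped too. The acinar list (6 of 6 genes detected) ran from 4.24 to 44.9 CPM in control and from 8.21 to 128 CPM in PPTx samples, the stellate list (5 of 5) from 0 to 29.9 CPM and from 1.03 to 139 CPM, and the immune list (6 of 6) from 0 to 43.3 CPM and from 5.13 to 154 CPM. The ductal list (4 of 4) ran from 2.12 to 58.6 CPM and from 10.3 to 129 CPM, and the endothelial list (3 of 5) from 0.787 to 9.97 CPM and from 1.82 to 8.83 CPM. Without the β-cells that carried 3 or more non-islet UMIs or under 90% insulin, Pcna stood at 1.11 (SE 0.30; edgeR, adjusted p = 0.117), Fen1 at 1.43 (SE 0.39; adjusted p = 0.116) and Rfc4 at 1.89 (SE 0.62; adjusted p = 0.258) between PPTx and control.

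The step between both classes of β-cells was also compared between PPTx and control. The summed members in Top2a/Cdk1+ cells were at 915 and 872 CPM in controls 3 and 4 and at 961, 1118, 1038 and 868 CPM in PPTx samples 1 to 4, and overlapped. The single cell of control 1 had no UMI of any member, at a depth of 2062 UMIs, and that of control 2 had 12 UMIs. None of the 9 tested members was called, and none had an unadjusted p under 0.05 (edgeR interaction; 0 of 9895 genes called, 281 at an unadjusted p under 0.05; DESeq2 called 0 genes, with 126 at an unadjusted p under 0.05). The log2 estimates for the members ran from -2.13 to 1.15 with SEs of 0.56 to 1.64, in a fit that held 2 control samples. They were lowest for Rfc4 (-2.13, SE 1.64) and Rrm2 (-2.09, SE 1.42) and highest for Tyms (1.15, SE 1.47), and Pcna, Fen1, Lig1, Rpa2, Rrm1 and Dut lay between.

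Outside β-cells the members were measured in 276 cells. In cells without a Top2a or Cdk1 UMI, Pcna was at 18.5 CPM in β-cells (95% interval 15.3 to 22.3), 30.9 CPM in α-cells (17.3 to 51.0) and 17.6 CPM in PP-cells (9.36 to 30.1), and these intervals overlapped. Dut was at 53.3 CPM in β-cells (47.6 to 59.4), 82.5 CPM in PP-cells (63.1 to 106) and 90.6 CPM in α-cells (65.9 to 122). Its intervals in α- and PP-cells overlapped and both lay above that of β-cells, yet the test over samples did not call Dut. In α-cells edgeR called 0 of 8 tested members (14.1% of 9719 genes called; 0 members at an unadjusted p under 0.05, and 0 by DESeq2). In PP-cells it called 1 of 9, against 12.6% of 10113 genes called lower.

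That member was Lig1, which had no UMI in 131 PP-cells without Top2a or Cdk1, where a count of 0 allows up to 4.06 CPM (3 counts over the class), against 5.79 CPM in β-cells (35 UMIs; edgeR, adjusted p = 0.0268). Fen1 was the other member with an unadjusted p under 0.05, and DESeq2 called 0 of the 9. Lig1 and Fen1 reached the minimum of 15 UMIs only with the β-cells added, so nothing is drawn from these p-values. The Lig1 call was lost without control 3, control 4, PPTx 1, PPTx 2 or PPTx 3 (adjusted p between 0.0513 and 0.0937) and with DESeq2 size factors (0.0509). Rfc4, Rpa2, Fen1, Rrm1 and Tyms had 2 to 5 UMIs each in α-cells and 4 to 6 in PP-cells, and Rrm2 0 and 1. Tk1 was not detected in any of the 276 cells (0 UMIs, which allows up to 2.23 CPM), against 0.496 CPM in Top2a/Cdk1- β-cells, below what this depth could show. The 14 δ-cells held 6 UMIs of members in all, 2 each of Dut and Fen1, and were too few per sample to be compared.

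Few cells of other types held a Top2a or Cdk1 UMI. A PP-cell of control 2 held 6 UMIs of Top2a and Cdk1 and 16 UMIs of 6 members, among them 3 of Rrm1, 2 of Rrm2 and 6 of Dut. Of 2 α-cells with Top2a or Cdk1, that of PPTx 2 had 3 members and that of control 3 had Dut alone. An α-cell of PPTx 2 without either transcript held 5 members, with 5 UMIs of Pcna and 3 of Fen1. Between PPTx and control, 3 members could be tested over all non-β-cells (Dut, Pcna and Rrm1), and edgeR called 0 of them (0.345% of 6961 genes called; 0 members at an unadjusted p under 0.05, and 0 by DESeq2). Dut had means of 93.5 ± 22.2 CPM in control and 83.8 ± 7.17 CPM in PPTx samples (SD, n = 4 each; exact permutation test, p = 0.457). The cells differed in type, with 6 to 52 α-cells and 2 to 13 PP-cells in control samples. PPTx samples held 1 to 8 α-cells and 17 to 44 PP-cells, and the part of this in the comparison was not tested.

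**Figure D5:**
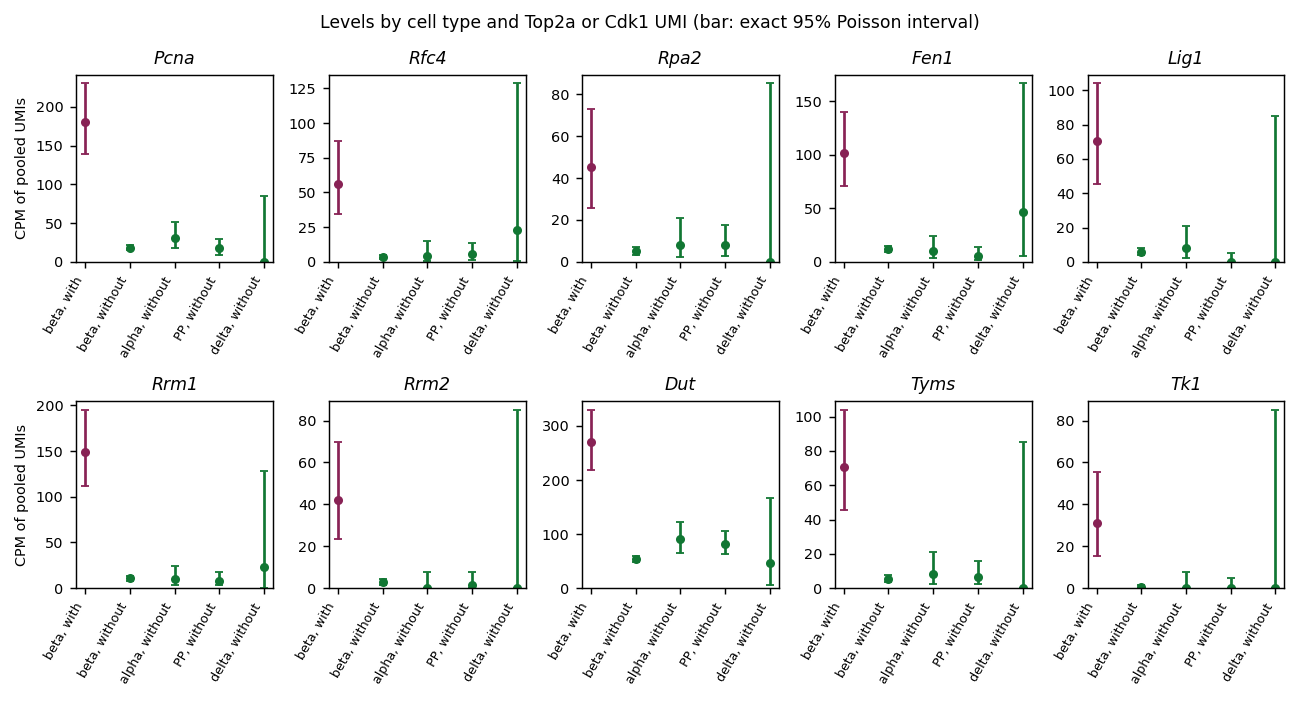
CPM of UMIs pooled over cells (vertical axis, linear, from 0) for each of the 10 genes in β-cells with a Top2a or Cdk1 UMI and in β-, α-, PP- and δ-cells without one (horizontal axis); bars are exact 95% Poisson intervals, which cover counting error only. Pcna is at 180 CPM in the first class and between 0 and 30.9 CPM in the others, and the wide bars of δ-cells rest on 14 cells.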

How the data were processed

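Islet cells of 8 samples (4 control, 4 PPTx) were captured in droplets and sequenced from the transcript 3′ end. The authors made the deposited counts of unique molecular identifiers (UMIs), whole numbers per gene and cell, with bcl2fastq v2.20.0.422 and Cell Ranger v2.1.0 on mm10, and no normalization was applied to them. The labels name a Chromium kit together with a ddSEQ isolator, and the selection of cells ahead of the deposit is not given in the sources used here.

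Limits of 100 and 3000 genes and of 100 and 20000 UMIs a cell left 1232 of 1240 cells, and no doublets were called. UMIs were summed per sample and cell class and tested with edgeR 4.0.16 (R 4.3.3, limma 3.58.1) by quasi-likelihood with TMM scaling, for genes with at least 15 UMIs, with Benjamini-Hochberg adjustment over all genes tested and a threshold of 0.05; DESeq2 1.42.0 was an alternative. A class needed at least 2 Top2a/Cdk1+ cells, or 5 cells of another type, in a sample. Fold changes and standard errors are on the log2 scale, and CPM are UMIs per 1000000 UMIs of the class. Exact permutation tests over samples are two-sided. Thinned cells were drawn to 2500 UMIs and kept the classes they had at full depth. Only for the share of Top2a/Cdk1+ cells among β-cells was the Top2a/Cdk1 class set again from the thinned UMIs. Python 3.11.15 with numpy 2.4.6, pandas 2.3.3, scipy 1.17.1 and matplotlib 3.10.9 was used, and the scripts were tested on simulated data.

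Replicates are the samples, and cells were never treated as replicates; whether mice were shared between samples is not given in the sources used here, so p-values measure the spread between these samples. Depth was 227439 to 1580152 UMIs per sample, and Poisson and binomial intervals (95%) cover counting error only. The rule for named genes took all 10 members in every comparison, given by range or count where few could be tested, and from each other list up to 4 genes by the smallest p between Top2a/Cdk1+ and Top2a/Cdk1- β-cells, with the MCM genes added and Rrm2b and Tk2 named as examples after their values were seen; some genes that this rule names are not reported here. The members and lists were chosen with earlier results of these data known. Alternatives were other scalings, filters, class rules, thinned cells, leaving out each sample, a replicate block and, added after seeing the data, leaving out β-cells with transcripts of other cells.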

Additional observations from a re-analysis of the deposited data

Results flagged for a closer look

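Among 42 groups of 4 samples examined for a sample far from the others, 2 stood out, where chance alone marks about 1 in 20 groups. Fen1 in all β-cells was at 7.29 CPM in PPTx 4, while the other PPTx samples were at 26.5 to 27.5 CPM. Tk1 in Top2a/Cdk1- β-cells was at 1.18 CPM in control 4, on 1 UMI, while the other controls were at 0.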

How the results depend on the processing

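Between Top2a/Cdk1+ and Top2a/Cdk1- β-cells, 485 genes were called, against 279 with DESeq2 size factors in edgeR and 307 with the filterByExpr filter, and 9 members, against 4 with DESeq2 and 5 with the Mki67 classes. The split of 170 higher and 315 lower genes became 228 and 51 with DESeq2 size factors, 57 and 547 with DESeq2 and 41 and 452 with thinned cells. Without 1 sample each, 231 to 345 genes and 8 to 9 members were called.

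For PPTx against control, all β-cells gave 17 genes, against 27 with DESeq2, 95 with no filter, 7 with thinned cells, 7 with all deposited cells and 27 without β-cells carrying other cells' transcripts; no filter called 1 member. Top2a/Cdk1- β-cells gave 15, against 26, 78, 7, 1 and 27 in the same order. Leaving out 1 sample gave 2 to 27 and 0 to 24 genes. The difference between classes gave 0 genes, against 1 with DESeq2 size factors, 1 with no filter, 2 with all deposited cells and 1 with no sample block (0 to 3 without 1 sample). Thinned cells gave 619 genes for α-cells (1375 unthinned) and 906 for PP-cells (1626 unthinned; 833 to 1197 and 1176 to 1471 without 1 sample); the 1 member of the PP-cells (Lig1) became 0 with DESeq2 size factors and with no filter, 0 with DESeq2, which gave no adjusted p for Lig1, and 0 with filterByExpr and thinned cells, under which Lig1 was not tested (0 to 1 without 1 sample). Other cells after PPTx gave 24 genes, against 11 with DESeq2, 7 with filterByExpr, 10 with no filter, 10 with thinned cells and 47 with all deposited cells (6 to 30 without 1 sample).

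The difference in the share of Top2a/Cdk1+ cells was 1.20 percentage points with 2 UMIs (exact permutation test, p = 0.286), 4.14 without cells carrying other transcripts (p = 0.0857), and 3.47 to 5.14 without 1 sample, with p = 0.0571 without any 1 of the controls and p = 0.0286 without any 1 of the PPTx samples. The log2 change of Rrm2 in all β-cells, at -0.05, turned to 0.078 with DESeq2 and 0.026 without cells carrying other transcripts, and ran from -0.23 without control 2 to 0.25 without control 4, above 0 also without control 3, PPTx 1 or PPTx 2. In Top2a/Cdk1- cells Rrm2 ran from -0.21 without control 3 to 0.84 without PPTx 2, and Dut was -0.046 with thinned cells. The causes were not tested.

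The deviations of samples with the same replicate number correlated at 0.085, 0.059, 0.062 and 0.218 over 3547 genes, only 1 of 4 above 0.1, so the numbers were not taken to pair the samples. Of the 8 samples, 6 correlated best with their own number, a hint from the data and not from the design. With the replicate block, 74 genes were called in all β-cells, 49 in Top2a/Cdk1- β-cells and 13 in other cells, Rrm2 in all β-cells was 0.28, and the share differed by 4.16 points (exact permutation test, p = 0.125, the smallest possible). The comparison of δ-cells could not be fitted, since no sample held 5 of them. Depth limits Tk1, Rrm2 and Rfc4 most, at 14, 32 and 40 UMIs in all β-cells.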
